A study of Macaca mulatta with 2 samples.

Results

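The genes described here encode the gonadal hormones of the TGF-beta superfamily, their receptors and their binding proteins. They are AMH, the inhibin and activin subunits INHA, INHBA and INHBB, the binding proteins FST and FSTL3, and the receptors AMHR2, ACVR1B, ACVR2A and ACVR2B. The 10 genes were chosen by name, as the gene spots of the array annotated with one of these symbols, and they form a small share of the 21495 gene names on the array. Each had at least 1 probe, for 13 probes in all, and all 10 symbols occur in the macaque gene tables of RefSeq and Ensembl.

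Messenger RNA was measured in primary Sertoli cell cultures of the rhesus macaque (Macaca mulatta) on 2 one-colour arrays with human probes. The infant culture came from testes of males younger than 3 months. The pubertal culture came from males of 18 to 22 months that had received pulses of gonadotropin-releasing hormone (GnRH) through an indwelling catheter over 4 to 5 weeks, so that puberty was induced and not spontaneous. A pulse came every 3 h and lasted 2 min, at a rate of 0.15 µg/min. Both cultures had spent 12 h with follicle-stimulating hormone (FSH) at 5 ng/ml and testosterone at 100 nM, and no culture without these hormones was analysed here. Each group had 1 array and no replicate, so no difference carries a test, and animal, culture, age and GnRH treatment cannot be told apart. The sources used here do not say how many animals gave cells to each culture. In RNA from a whole culture, fewer cells of a type and less RNA per cell cannot be told apart.

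AMH, made by Sertoli cells of the fetal and immature testis, makes the Müllerian ducts regress and acts through the type II receptor AMHR2. Inhibins join the alpha subunit INHA to a beta subunit, INHBA in inhibin A or INHBB in inhibin B, and lower the release of FSH from the pituitary. Activins are dimers of beta subunits. They bind the type II receptors ACVR2A and ACVR2B, which recruit the type I receptor ACVR1B, and they are held away from these receptors by follistatin (FST) and the follistatin-like protein FSTL3. In primates inhibin B is the main circulating inhibin of the male, and AMH output of the testis declines at puberty.

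The probes of AMH, its receptor AMHR2, INHA, INHBA and FST are shown because human sequence was used to capture monkey RNA, so base composition and match bear on every signal. The other probes, those of INHBB and FSTL3 among them, are not shown. Sequences are given 5′ to 3′ as listed in the array files, and capitals mark the longest unbroken run of G and C bases in each, or the first of several runs of that length.
AMH: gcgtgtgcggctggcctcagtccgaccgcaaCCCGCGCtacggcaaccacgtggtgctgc
INHA: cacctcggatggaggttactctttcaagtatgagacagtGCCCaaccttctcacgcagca
INHBA: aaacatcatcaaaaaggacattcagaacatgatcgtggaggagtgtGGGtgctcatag
FST: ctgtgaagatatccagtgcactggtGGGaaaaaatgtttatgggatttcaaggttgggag
AMHR2: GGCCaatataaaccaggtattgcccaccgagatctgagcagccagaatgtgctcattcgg
The INHBA probe is shown up to the stop codon of the reading frame, for 58 of its 60 bases. The AMH probe was the richest in G and C of the 13 probes, at 71.7%, with a longest run of 7 bases, whereas the INHA and AMHR2 probes held 51.7% and the INHBA and FST probes 43.3%. Over the 64 measured probes with as many G and C bases as the AMH probe, the median difference between the arrays was 0.13, against -0.08 over the 1784 probes with as many as the FST probe. All differences are pubertal minus infant on the log2 scale, after each array was set to its 75th percentile.

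Of the 10 genes, AMH and FST were at least 2-fold higher in the pubertal culture, INHBB and FSTL3 were at least 2-fold lower, and the other 6 differed by less than 2-fold. All 10 were well above background on both arrays. Over the 14243 genes measured on both arrays, 7.32% were higher by 2-fold or more and 6.32% were lower by as much. At 1.5-fold, 5 members were higher and 2 lower, beside 15% and 16.8% of all measured genes. At 4-fold, AMH alone was higher and no member lower, beside 1.67% and 0.857% of all measured genes. The median difference of the 10 genes was 0.54, beside -0.06 over all measured genes. Of the 10, 7 were above 0 and 3 below, beside 45.8% of all measured genes above 0. The 10 genes were proposed with earlier results of these arrays known, so these counts describe them and test nothing.

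**Figure D1:**
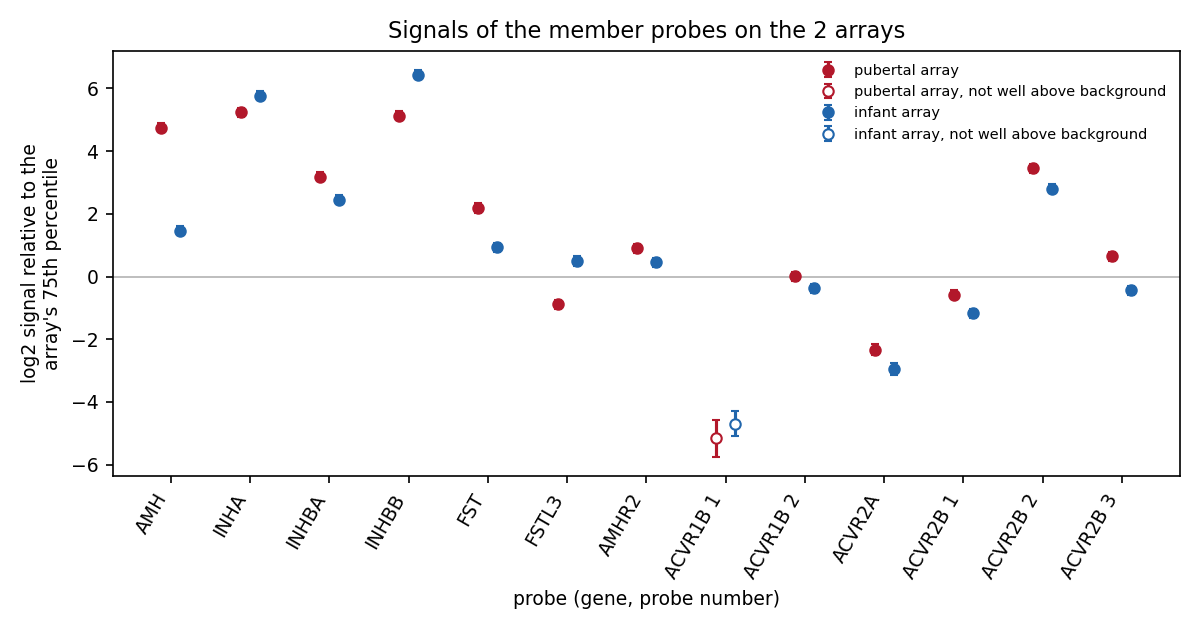
Log2 signal of each of the 13 probes relative to the 75th percentile of its array, on the pubertal array (red) and the infant array (blue). Bars are the scanner's error of the spot, and open points are not well above background. AMH and FST are higher on the pubertal array, INHBB and FSTL3 lower, and heights of different probes are not comparable.

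AMH had the largest difference of the 10 genes. Its processed signal was 10881 intensity units on the pubertal array, with a scanner error of 1088, and 1055 units on the infant array, with an error of 106. Both signals stood far above the local background of 33 and 34 units, and neither spot was saturated or marked as an outlier. After scaling, AMH was higher by 3.28 ± 0.20 (scanner error), or 9.69-fold, in the pubertal culture. This error comes from the scanner software, at a median of 10.1% of a spot's signal on either array, and covers the spot alone, not the animal or the culture. AMH ranked 65 from the top among the 14243 genes and lay outside the central 95% of their differences, which ran from -1.43 to 1.71. The value rests on 1 spot per array. The 21 gene spots within 3 grid units of it had a median difference of -0.0041, with all gene spots centred on 0, and no member's spot lay in an area of disturbed signal. The surroundings of some other members were less even. The neighbours of INHBB had a median of -0.38, those of INHA -0.28, those of FSTL3 -0.24 and those of the measured ACVR1B probe -0.29. The neighbours of 1 of the 3 ACVR2B probes, the one at 0.59, had a median of 0.55. The part of array position in these genes' values was not tested.

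AMHR2, the receptor that binds AMH, differed by far less than its ligand. Its signal was 757 units on the pubertal and 522 units on the infant array, a difference of 0.45 ± 0.20, or 1.36-fold. AMH was thus higher relative to AMHR2 by 2.83 ± 0.29 (7.11-fold), a contrast that a constant scaling between arrays leaves as it is. Over the 15 alternatives and the reported setting this contrast lay between 2.59 and 2.91. Only normexp background correction, quantile and loess normalization and the correction for probe G and C content can move it. The other alternatives leave a contrast between genes with 1 probe each as it is.

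The 3 inhibin and activin subunits differed from one another. INHA, the subunit common to inhibin A and inhibin B, gave 15383 units on the pubertal and 20694 units on the infant array. Its difference was -0.52 ± 0.20, which is 1.43-fold lower in the pubertal culture and short of 2-fold. Quantile and loess normalization gave -0.29 and -0.31 for INHA. INHBB, the beta subunit of inhibin B and activin B, gave 14239 units on the pubertal and 33179 units on the infant array. At -1.31 ± 0.20 it was 2.48-fold lower in the pubertal culture, and 3.12% of all measured genes lay below it. Quantile and loess normalization gave -1.05 and -1.10 for INHBB. The 2556 measured probes of similar mean signal, the tenth that holds INHA and INHBB, had a median difference of -0.21. The part of signal level in the values of INHA and INHBB was not tested. INHBA, the beta subunit of inhibin A and activin A, gave 3694 units on the pubertal and 2097 units on the infant array, a difference of 0.73 ± 0.20 (1.66-fold higher).

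The 2 beta subunits therefore lay on opposite sides of 0. INHBA relative to INHBB was higher by 2.04 ± 0.29 in the pubertal culture (4.10-fold). This contrast lay between 1.79 and 2.04 over the alternatives, most of which cannot move a contrast between genes with 1 probe each. INHBB was also lower relative to INHA, by -0.79 ± 0.29, with a range from -0.81 to -0.68. AMH and INHBB, both known as Sertoli cell products, lay 4.59 ± 0.29 apart, between 4.37 and 4.59 over the alternatives. These contrasts carry the error of 4 spots and no replicate.

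The 2 activin-binding proteins also lay apart. FST, which binds activins almost irreversibly, gave 1850 units on the pubertal and 732 units on the infant array. Its difference was 1.25 ± 0.20 (2.37-fold higher in the pubertal culture), with 95.1% of all measured genes below it. FSTL3, a relative that also binds activins, gave 221 units on the pubertal and 539 units on the infant array. Its difference was -1.38 ± 0.21 (2.60-fold lower in the pubertal culture), and 2.72% of all measured genes lay below it. FST relative to FSTL3 was higher by 2.62 ± 0.29 (6.16-fold), with a range from 2.31 to 2.69. FSTL3 minus INHBB was -0.07 ± 0.29, within the error. It ranged from -0.34 to -0.03 over the alternatives, with quantile normalization placing FSTL3 at -1.39 and INHBB at -1.05, beyond that error.

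**Figure D2:**
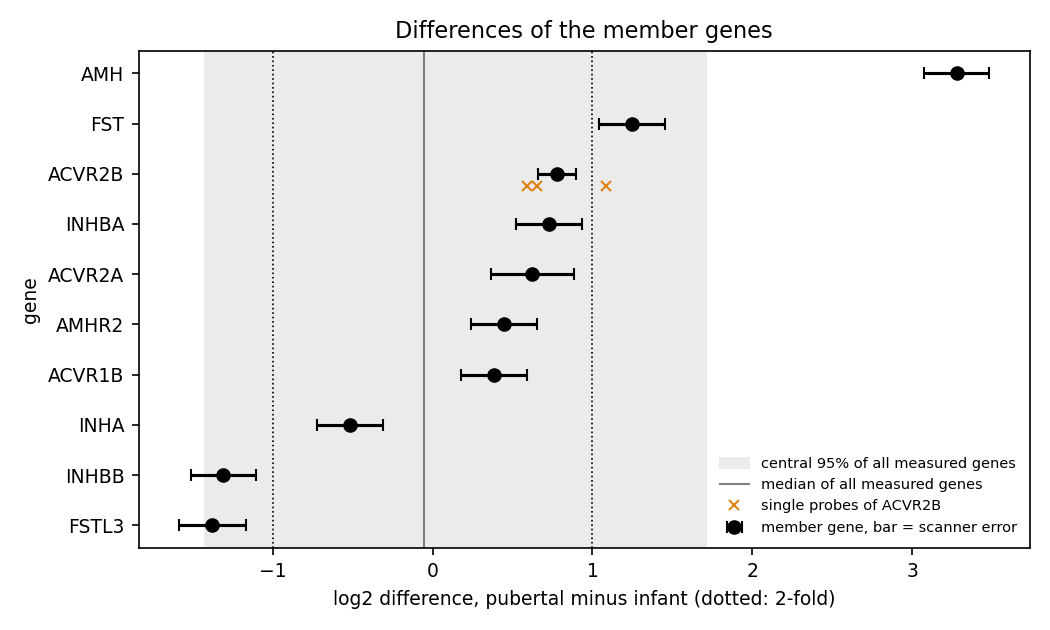
Log2 difference, pubertal minus infant, of the 10 genes, with the scanner error as bars. Crosses are the 3 probes of ACVR2B, the grey band is the central 95% of the 14243 measured genes, and dotted lines mark 2-fold. AMH at 3.28 lies outside the band and the 4 receptors lie between 0.39 and 0.78.

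The 4 receptors were all somewhat higher in the pubertal culture, and none reached 2-fold. Their differences ran from 0.39 to 0.78 with a median of 0.54. ACVR2B, a type II activin receptor, was the only member with several measured probes. Its 3 probes gave 273, 4456 and 639 units on the pubertal array and 170, 2666 and 283 units on the infant array. Each of the 3 was higher on the pubertal array, by 0.59, 0.65 and 1.09, for a mean of 0.78 with an SD between probes of 0.27. That spread is close to the median SD of 0.21 over the 4767 genes with several measured probes. The scanner error of each of these probe differences was 0.20 to 0.21.

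ACVR2A, the other type II activin receptor, was dim, at 80.6 units on the pubertal and 49.1 units on the infant array against a local background of 34 and 31 units. Its difference was 0.62 ± 0.26, and it was 0.20 with normexp background correction. ACVR1B, the type I receptor of activin, had 2 probes, of which 1 was measured. That probe gave 409 and 295 units on the pubertal and infant arrays, a difference of 0.39 ± 0.21. The other ACVR1B probe, annotated to other transcripts of the gene, gave 11.4 and 14.8 units, not well above background on the pubertal or the infant array. When it was included, the mean of ACVR1B was -0.03, so the direction of ACVR1B rests on the choice of probe.

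In order of their differences the genes ran from FSTL3 and INHBB over INHA, ACVR1B, AMHR2, ACVR2A, INHBA and ACVR2B to FST and AMH. Between ACVR1B and ACVR2B, from 0.39 to 0.78, adjacent genes differed from each other by less than their errors. ACVR1B lay 0.90 ± 0.29 above INHA, and FST lay 0.47 ± 0.24 above ACVR2B. With the median signal of the gene spots of each array as the scale instead of the 75th percentile, every difference shifted by -0.16. With spike-in control probes as the scale, every difference shifted by 0.90, and INHA then lay above 0, at 0.38, and INHBB and FSTL3 at -0.41 and -0.47. Statements of direction for INHA, and of 2-fold size for INHBB and FSTL3, therefore hold relative to the bulk of the genes on the array. AMH and FST stayed past 2-fold under all 13 alternatives that change values. Each of these 2 genes had 1 probe, bright on both arrays. The alternatives of the dim-probe filter and of the choice of probes therefore could not change them.

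**Figure D3:**
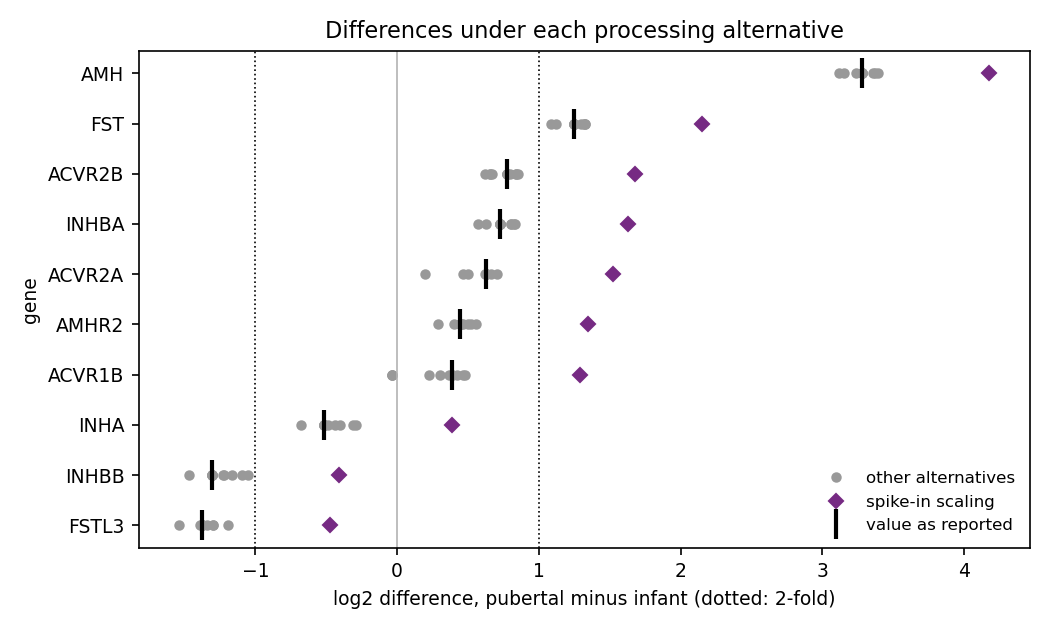
Log2 difference of each gene as reported (bar), with spike-in scaling (diamond) and under the other alternatives that change values (grey points). Spike-in scaling shifts all genes to the right by 0.90 and takes INHA from -0.52 to 0.38.

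The labelled cell type was checked against markers. Of 11 Sertoli cell markers, all were measured on both arrays, and their median difference was 0.72, with 4 at least 2-fold higher in the pubertal culture and none lower. Their summed signal was 94866 units on the pubertal and 40176 units on the infant array. CLU gave 54641 and 31258 units of these sums and TF gave 31866 and 3008 units, together most of either sum. Relative to that median AMH was higher by 2.56 (5.90-fold), INHBA lay at 0.01, and INHA and INHBB lay at -1.23 and -2.03. The median is the value of CLU, and the 11 markers were widely spread, from -0.13 for GATA4 to 3.32 for TF. The marker TF thus lay as far up as AMH, at 3.28.

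Markers of other cell types also differed between the cultures. Of 10 germ cell markers, 5 were measured on both arrays and 4 on the pubertal array alone, while PIWIL1 was on neither. Of those measured on both, 4 were at least 2-fold higher in the pubertal culture, while UTF1 lay at 0.24. The summed signal of the list was 5570 units in the pubertal and 1577 units in the infant culture. UTF1 alone gave 1775 and 1411 units of these sums, which is most of the infant sum. All 6 smooth muscle and peritubular cell markers were above 0, with 4 at least 2-fold higher and sums of 54400 and 27791 units. Of 6 macrophage markers, 3 were at least 2-fold higher and AIF1 was detected in the pubertal culture alone, while CD14 lay at 0.60 and the dim CD68 at -0.94, with sums of 1901 and 371 units. Of 6 Leydig cell markers, STAR (-4.24), CYP17A1 (-4.21) and CYP11A1 (-1.37) were at least 2-fold lower, while HSD3B2 lay at 0.25 and INSL3 at 0.41, with sums of 18577 and 57613 units. LHCGR, the luteinizing hormone receptor, was detected on neither array. Of 5 endothelial markers PECAM1 was at least 2-fold higher and none lower, TEK was detected in the pubertal culture alone and CDH5 and KDR on neither array, with sums of 664 and 272 units. Of 6 fibroblast markers COL1A2 and DPT were at least 2-fold higher, COL1A1 lay at 0.22, PDGFRA at -0.53 and COL3A1 at -0.76, and LUM was detected in the pubertal culture alone, with sums of 9086 and 6229 units. The part of these cells in the values of AMH, the inhibin subunits and the follistatins was not tested.

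Regulators of AMH transcription mostly differed by less than 2-fold. Of 10 listed regulators, all were measured, 3 were at least 2-fold higher in the pubertal culture and none lower, with a median of 0.35. SOX9, SOX8, WT1, GATA4, DMRT1 and FSHR also stand among the Sertoli cell markers, so the lists are not separate observations. DMRT1, a male sex-determining transcription factor, gave 492 and 107 units on the pubertal and infant arrays, a difference of 2.11 ± 0.21. NR0B1, a nuclear receptor that represses steroidogenic factor targets, gave 419 and 111 units, a difference of 1.82 ± 0.21. SOX8, a close relative of SOX9, had a mean of 1.05, but its 2 probes disagreed in size at 0.32 and 1.77. The activators of AMH best known from mouse and human, SOX9 (0.42), WT1 (0.10), GATA4 (-0.13) and NR5A1 (0.17), stayed under 2-fold. The SOX9 spot lay in an area of disturbed signal.

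Beyond the 10 genes, 111 other genes of the superfamily and of AMH control were listed, and 76 of them were measured on both arrays. Of these, 11 were higher by 2-fold or more in the pubertal culture and 6 were lower by as much, with a median of 0.14. The shares over all measured genes, 7.32% higher and 6.32% lower, stand beside these counts and those of each pathway and marker list. Among the other ligands, 2 of 12 measured genes were higher and 3 lower past 2-fold. GDF15, a stress-induced member, gave 1342 units on the pubertal and 16506 units on the infant array (-3.71 ± 0.20). TGFB3, one of the 3 TGF-beta ligands, differed by -1.45 ± 0.21 and GDF11, a close relative of myostatin, by -1.41 ± 0.21. The oocyte factor GDF9 (2.14-fold higher) and the dim BMP8B (1.08 ± 0.33), known for a role in germ cells of the mouse, were higher. The remaining inhibin beta subunits were dim: INHBC gave 48.1 and 79.6 units with 2 probes at -1.36 and -0.28, and INHBE was detected on neither array.

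Receptors and coreceptors other than the 4 members centred on 0.23 over 12 measured genes, with 1 higher past 2-fold and none lower. RGMA, a coreceptor for bone morphogenetic proteins, gave 414 and 97.2 units (2.00 ± 0.21). TGFBR1, the type I receptor of TGF-beta, was dim and lay at -0.90 ± 0.30, and the Nodal coreceptor TDGF1 lay at 0.65 ± 0.16. TGFBR3, or betaglycan, with which inhibin holds type II activin receptors, gave 184 and 271 units (-0.65 ± 0.21). ACVR1, a type I receptor that also serves AMH, gave 905 and 648 units (0.39 ± 0.20), close to the values of the activin receptors. The list went both ways, with 7 of the 12 measured genes above 0. BMPR1A, with all 3 probes below 0, lay at -0.46 ± 0.12 and BMPR2 at -0.64 ± 0.14.

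Binding proteins and antagonists had 1 gene higher and 1 lower past 2-fold among 13 measured. The proteoglycan decorin, DCN, gave 2327 and 6163 units (-1.49 ± 0.20), WFIKKN1, which binds myostatin and GDF11, gave 602 and 233 units (1.28 ± 0.21), and the latent TGF-beta binding protein LTBP3 lay at 0.83 ± 0.15. FSTL1, which shares a domain with follistatin, lay at -0.09. Among 7 measured proteases that cleave precursors of the family, PCSK1 alone passed 2-fold (2.21 ± 0.30, or 4.62-fold higher), while FURIN (-0.60 ± 0.21) and BMP1 (-0.85 ± 0.11) were lower by less than 2-fold.

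**Figure D4:**
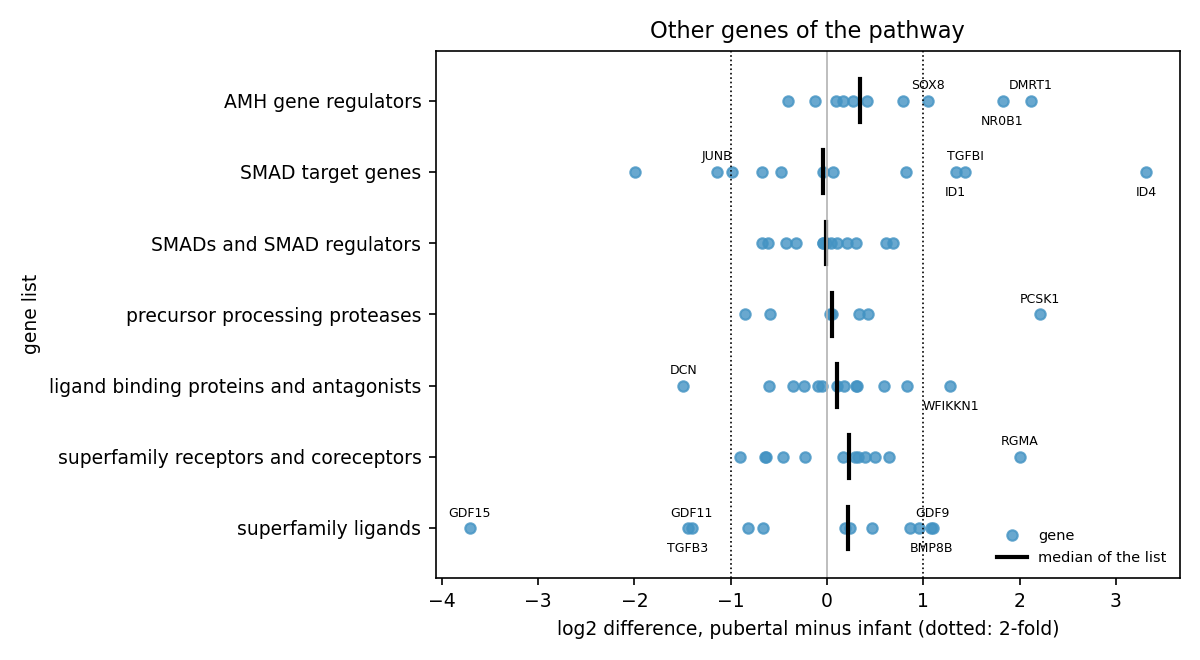
Log2 difference, pubertal minus infant, of the measured genes of 7 lists of related genes, 1 point per gene, with the list median as a bar, dotted lines at 2-fold and names for the genes past it that are reported by name. Genes detected on 1 array alone are not drawn. Among those drawn, no SMAD or SMAD regulator passes 2-fold, and ID4 (3.31) and GDF15 (-3.71) lie farthest out.

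The intracellular mediators measured on both arrays differed by less than 2-fold, and their target genes went both ways. None of 13 such SMADs and SMAD regulators reached 2-fold, with SMAD9 (0.68 ± 0.23), SKIL (-0.67 ± 0.22) and SMAD1 (-0.62 ± 0.15) farthest out. Of the list's other members, SMURF1 had signal above background in the infant culture only. It was lower in the pubertal culture by approximately 2.31-fold or more. SMAD6 was detected in the pubertal culture only. SMAD2 and SMAD3, which carry the activin signal, lay at -0.05 and 0.10, and a spot of SMAD3 lay in an area of disturbed signal. Of 11 measured target genes, 3 were higher and 2 lower past 2-fold. The bone morphogenetic protein targets ID4 (983 and 93.1 units, 3.31 ± 0.21) and ID1 (3057 and 1140 units, 1.33 ± 0.20) were higher, as was TGFBI (1.44 ± 0.20). JUNB, a transcription factor of the AP-1 family, was lower, at -1.15 ± 0.14. ID2 differed from ID1 and ID4 in sign, at -0.48. SMAD7 and SKIL stand in the lists of both regulators and targets.

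By size of difference alone, the genes nearest to AMH were MGC16703 (3.27), the junctional immunoglobulin protein VSIG1 (3.30), the lysophospholipase ENPP2 (3.31), ID4 (3.31) and the iron carrier TF (3.32). Likeness was the distance between log2 differences over 2 arrays, and 23 genes lay within 0.2 of AMH. Around INHBB 386 genes lay within 0.2, so that the nearest ones, LOC729991, GNG11, 76P, SDC1 and OAF, are a few among many.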

How the data were processed

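Each of 2 arrays held RNA of 1 culture, and groups were taken from the sample titles. The deposited spot intensity values were made by the authors with Agilent Feature Extraction 10.5.1.1, as headers and submitters' processing notes state: background-subtracted, detrended within the array, and not scaled between arrays. The deposited flags and grid positions (other columns) were used as written, per the file headers. Probes are human, with positions on hg18 that were not used. Both arrays lay on 1 slide.

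Outlier spots (96 pubertal, 91 infant) were left out. The log2 of the processed signal was set to the 75th percentile of the gene spots (406.7 and 382.4 units), spots of a probe were averaged, and the mean over a gene's probes well above background on both arrays was taken (at least 50% of spots). On the pubertal and infant arrays 54.9% and 54.8% of gene spots were well above background. None was saturated. Summed signals of marker lists add unscaled gene signals, with genes not measured on both arrays at their own dim or bright signal. Alternatives changed background correction, scaling, the dim-probe filter, the choice of probes and the fold threshold. The number of arrays limits the precision, and called means past 2-fold. Functions were tested on simulated data. Members, lists and areas of disturbed signal were chosen with earlier results of these data known. Named genes are all 10 members, list genes past 2-fold (or the 3 largest), and the 5 nearest to AMH and to INHBB; others were named after their values were seen, and a few list genes, counted with their lists, are not reported here by name. Normexp used limma 3.58.1 with an offset of 50, and other steps Python 3.11.15.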

Additional observations from a re-analysis of the deposited data

How the results depend on the processing

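Of 14 alternatives chosen at the outset and 1 chosen after seeing the data (correction for probe G and C content), 13 change the difference of a gene and 2 change the fold threshold. AMH kept its direction and stayed past 2-fold in all 13, between 3.12 and 4.18, the upper value with spike-in scaling. With 1 probe, bright on both arrays, AMH could not be changed by the dim-probe filter or the choice of probes. Spike-in scaling also gave a median of the 10 genes of 1.44, 7 members higher and 0 lower, and 40 pathway genes higher and 2 lower. The median of the 10 genes was 0.35 with normexp correction, 0.38 with scaling on the median, 0.61 with the percentile of detected probes and 0.45 among probes above the median signal, where ACVR2A gave no value. At 1.5-fold there were 5 members higher and 2 lower (15% and 16.8% of all genes), and 20 pathway genes higher and 17 lower. At 4-fold there were 1 and 0 members (1.67% and 0.857% of all genes), and 4 and 1 pathway genes. Pathway genes higher were 7 with normexp correction and 18 when dim probes were kept. The latter count is over a larger set, because keeping dim probes raised the genes counted from 14243 to 21495. The cause of these shifts was not tested. Over all genes 53.7% of calls were upward, against 37.6% with scaling on the median and 97.5% with spike-in scaling. Counts over all genes were 1042 higher and 900 lower, 553 and 568 with normexp correction, 2081 and 1485 with no filter and 5524 and 144 with spike-in scaling. No paired analysis was possible because each group had 1 array, and no array could be left out. Dim probes limit ACVR2A and ACVR1B.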

Other observations

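Some genes of the superfamily were well above background on 1 array alone, so that only an approximate lower bound could be given. It was taken against the higher of the gene's own signal and the lowest signal well above background on the dim array. The bounds carry no scanner error. Where the gene's own dim signal was the higher, the bound is the measured difference itself. The pubertal array alone detected the bone morphogenetic proteins BMP5 (at least 4.21-fold higher) and BMP7 (at least 3.37-fold higher), GDF10 (at least 2.05-fold higher), the inhibitory SMAD6 (at least 2.00-fold higher) and IGSF1, a membrane protein once proposed to bind inhibin (at least 1.55-fold higher). The infant array alone detected the ubiquitin ligase SMURF1 (at least 2.31-fold lower in the pubertal culture), WFIKKN2 (at least 2.16-fold lower) and the antagonist GREM1 (at least 1.87-fold lower). The receptor BMPR1B (1.19-fold), BMP2 (1.12-fold) and GDF6 (1.1-fold) were also detected there alone. Their bounds were 0.25, 0.16 and 0.14 on the log2 scale. These lay near 0.20, the median scanner error of a gene difference, and set no direction. MSTN and PMEPA1 were not matched by name.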
